A study of Mus musculus with 11 samples.

Results

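Under knockdown of MERRICAL, a long noncoding RNA, mouse bone marrow derived macrophages were compared between the M1 and the M0 state, to describe which parts of macrophage activation are present in knockdown cells. The knockdown agent was a gapmer, an antisense oligonucleotide whose pairing marks an RNA for cutting by RNase H. The comparison uses 5 of the 11 RNA sequencing libraries of the series, 2 of M1 KD (replicates 5 and 6) and 3 of M0 KD (replicates 1, 2 and 4), and every gene of the count table. Of 42375 named genes, 15024 had enough counts to be tested. The cells came from bone marrow of C57BL/6 mice and had been with the gapmer for 16 hours. For contrast, the same states with the control gapmer labelled NS are given beside it, with 3 libraries of M1 NS and 3 of M0 NS (replicates 1, 2 and 4 of each), and the difference between the responses was tested for every gene. All 4 groups received a gapmer, so none shows untreated cells. The sources used here do not give the agents that produced the M1 state, the sex and age of the mice or the meaning of the replicate numbers. MERRICAL is not among the gene names of the table, and its level was not analysed here.

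M1 is the name for macrophages in a classically activated state, which interferon gamma and bacterial products such as lipopolysaccharide can induce. Toll-like receptor signals work through NF-kappaB and the MAP kinases to switch on cytokine, chemokine and feedback genes, while interferons act through JAK kinases on antiviral and antigen presentation genes. Activated mouse macrophages make nitric oxide and itaconate, burn glucose by glycolysis, stop dividing and lose markers of the resting state. Macrophages of the vessel wall take part in atherosclerosis, where chemokines and their receptors guide the entry of monocytes.

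Total counts ran from 30040632 to 43250392 over the 11 libraries. The macrophage markers Csf1r, Emr1 (F4/80), Lyz2, Fcgr1, Mertk, Itgam, Cd14 and Spi1 were present in every library. In the knockdown groups Csf1r, the receptor of the growth factor M-CSF, lay at 2815 to 3253 CPM in M0 KD and at 487 to 797 CPM in M1 KD. Lyz2 and Itgam were also lower in M1 KD, whereas Emr1, Fcgr1, Mertk, Cd14 and Spi1 were higher. Fcgr1, for example, went from 344 to 390 CPM in M0 KD to 1674 to 1843 CPM in M1 KD. CPM is the count of a gene per 1000000 counts of its library, after scaling of the totals with TMM factors. Of 14 markers of lymphocytes 8 had too few counts to be tested, 2 rose and 2 fell, and their sum was 13.1 to 24.1 CPM in M0 KD and 9.5 and 11.7 CPM in M1 KD. Cd3e, which marks T cells, stayed under 0.4 CPM in all libraries, but other markers of the list did not. Cd4 lay at 8.17 to 19.3 CPM in M0 KD and at 6.61 and 6.77 CPM in M1 KD. Cd79b went from 3.06 to 3.83 CPM in M0 KD to 0.494 and 0.366 CPM in M1 KD. Cd8a went from 0.083 to 0.283 CPM in M0 KD to 0.988 and 3.44 CPM in M1 KD. The 19 markers of neutrophils and their precursors summed to 861 to 881 CPM in M0 KD and 395 to 425 CPM in M1 KD, so they moved with the comparison. Of these markers 17 fell, with a median log2 fold change of -3.02 over the list, and 2 rose, Csf3r and Lcn2, which made most of the sum in M1 KD. The part of these cells in the results below was not tested. In bulk RNA, fewer cells of a type and less RNA per cell cannot be told apart. Mitochondrial transcripts made 1.37% ± 0.089 of counts in M0 KD (SD, n = 3) and 0.624% ± 0.145 in M1 KD (SD, n = 2), a difference with an exact two-sided permutation p of 0.1, the smallest these group sizes allow.

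The M1 KD libraries were not close copies of each other. Their levels differed by a median of 0.325 on the log2 scale, and 2059 genes differed by more than 1. Pairs of M0 KD libraries had medians of 0.128 to 0.191, and pairs of M1 NS libraries 0.261 to 0.463. Over 22 alternatives that kept the threshold, leave-outs of single libraries included, 101 of the 148 genes named below kept the call of the difference between gapmers and the others did not in at least 1. Where a gene's call stated below changed without an M1 KD library, the value without it is given. The numbers 5 and 6 occur in no other group, so if M1 KD was prepared separately, that preparation cannot be told apart from the group.

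The activation response of knockdown cells was broad. Between M1 KD and M0 KD 8755 of 15024 genes were called, which is 58.3%, with 4040 higher (26.9%) and 4715 lower (31.4%). A gene is called where the p of edgeR's quasi-likelihood test, adjusted by Benjamini and Hochberg's method across the table, is under 0.05. The CPM ranges of the knockdown groups did not overlap for 74.9% of genes. With the NS gapmer 8338 genes were called (55.5%), 4044 higher (26.9%) and 4294 lower (28.6%). A list with 26.9% of its members higher and 31.4% lower under knockdown thus does no more than the table as a whole. The median log2 fold change over all genes was -0.11 in knockdown cells and -0.038 in NS cells.

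Most of the NS response was found again in knockdown cells. Of the 4044 genes that rose with the NS gapmer, 2623 (64.9%) also rose under knockdown, 1183 (29.3%) were not called and 238 (5.89%) fell. Those 2623 genes were also 64.9% of the 4040 that rose under knockdown. Of 4294 genes that fell with NS, 2827 (65.8%) fell under knockdown, 1284 (29.9%) were not called and 183 (4.26%) rose. The 2827 were 60.0% of the 4715 that fell under knockdown. Genes taken from the NS fit favour larger NS changes, and the reverse view shows the opposite lean. For the genes that rose with NS the median log2 fold change was 1.05 in NS cells and 0.919 in knockdown cells, whereas for those that rose under knockdown it was 0.78 and 1.23.

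A gene that passes in NS and misses in knockdown cells is not thereby different, so the difference of the responses, knockdown minus NS, was tested for each gene. It was called for 4095 genes (27.3%), 1965 with the higher response under knockdown (13.1%) and 2130 with the lower (14.2%). Among the 1183 genes that rose only in the NS fit, 428 had a called difference. Among the 2623 that rose in both, 2125 had none. Without M1 KD replicate 5 the difference was called for 2949 genes, of which 2656 had been called with it. Without replicate 6 it was called for 3619, of which 3133 had been called.

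**Figure D1:**
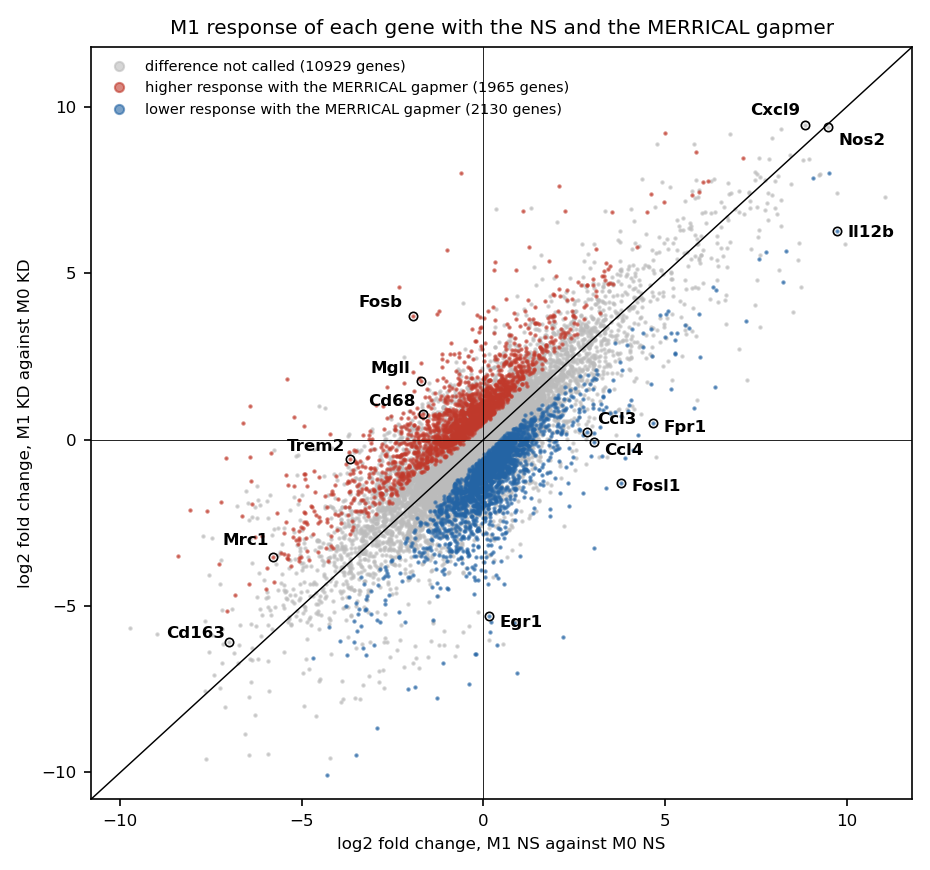
Each point is a gene, placed by its log2 fold change between M1 and M0 with the NS gapmer (horizontal axis) and with the MERRICAL gapmer (vertical axis). The diagonal marks equal responses. Nos2 and Cxcl9 lie near it at the upper right, Il12b, Fpr1, Ccl3, Ccl4, Fosl1 and Egr1 lie below it, and Fosb, Mgll, Cd68 and Trem2 lie above it.

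**Figure D2:**
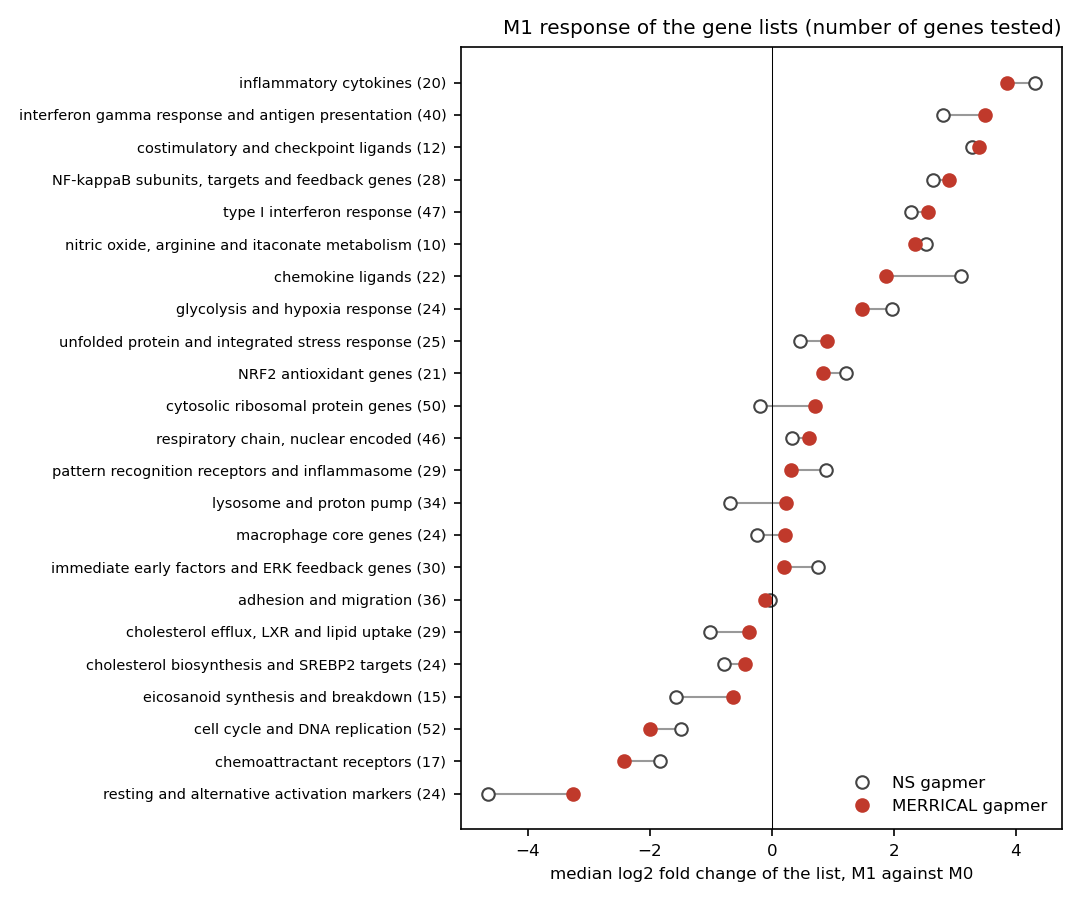
Median log2 fold change of each gene list between M1 and M0, in NS cells (open circles) and knockdown cells (red circles), with the number of genes tested in brackets. The cytokine list has the highest median in both. Lysosome genes and cytosolic ribosomal protein genes lie below 0 in NS cells and above 0 in knockdown cells.

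The interferon response was present in knockdown cells. In the list of interferon gamma response and antigen presentation genes all 40 tested members rose, as they did in NS cells, with median log2 fold changes of 3.49 under knockdown and 2.81 with NS. Of 47 type I interferon genes 44 rose and none fell, with a median of 2.56. Without M1 KD replicates 5 or 6, or with other scalings, the first count stayed at 40 and the second ran from 39 to 45. The 3 type I genes that were not called were Samd9l (log2 fold change -0.10), Slfn5 (0.019) and I830012O16Rik, also known as Ifit3b (0.43), named here after their values were seen. Samd9l was called with the length and GC trend removed (0.601) and I830012O16Rik with the knockdown groups alone (0.519).

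Transcription factors and an inhibitor of the pathway were among the genes with a larger response under knockdown. Irf1, a transcription factor that interferons induce, lay at 103, 92.3 and 106 CPM in M0 KD replicates 1, 2 and 4 and at 4485 and 3440.1 CPM in M1 KD replicates 5 and 6. Both M1 KD libraries lay above all 3 M1 NS libraries, which held 1343, 1599.6 and 1118 CPM. The log2 fold change was 5.30, SE 0.22, adjusted p = 8.89e-09 under knockdown and 3.37 with NS, and the difference of 1.94 was called (SE 0.27, adjusted p = 0.000526). Socs1, an inhibitor of JAK kinases that interferons induce, rose from 1.85, 2.46 and 2.71 to 540.3 and 1124 CPM, by 8.47 on the log2 scale. Its difference of 1.33 from NS was called, but not without M1 KD replicate 6 (0.71) or without M0 KD replicate 1 or 2, M0 NS replicate 1 or 2 or M1 NS replicate 1 (1.19 to 1.37). It was also not called with limma-voom (1.28) or with a trend in transcript length and GC content removed (0.865). Irf8, a factor of the myeloid lineage, rose by 3.36 against 1.23 with NS, a called difference of 2.14.

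Antiviral and antigen presentation genes followed. Oasl1, which restrains translation of Irf7, rose from 20.4, 17.3 and 17.0 to 4045 and 4025 CPM (7.79, SE 0.39, adjusted p = 2.72e-08), and its difference from NS of 1.62 was called, though not with the length and GC trend removed (1.19). Ifi35, an interferon-induced protein, rose by 2.63, and its difference of 0.35 was not called. The class II chaperone genes H2-DMa and H2-DMb1 rose by 3.10 and 2.74, each with a called higher response than with NS (1.41 and 1.15). The immunoproteasome gene Psmb9 also had a called higher response (1.04). In the interferon gamma list the difference was called higher for 10 genes and lower for 3, against 8 and 1 without M1 KD replicate 5 and 7 and 1 without replicate 6. The 3 were Gbp5, Tgtp1 and Tgtp2, GTPases of the defence against intracellular microbes (-2.67, -2.17 and -1.97). These 3 calls were not firm: without M1 KD replicate 5 Gbp5 (-2.11) and Tgtp2 (-1.95) were not called, and without replicate 6 Tgtp1 (-1.89) and Tgtp2 (-1.99) were not. Gbp5 was also not called without replicate 4 of M0 KD (-1.7) or of M0 NS (-2.41) or with limma-voom (-2.64). Among the fits that left out a library, Tgtp2 was called only without replicate 2 of M0 KD, or replicate 2 or 4 of M0 NS. Reads of the guanylate-binding proteins, the Tgtp pair and the class I genes can be shared between near copies, so single values of these families are uncertain. The protease inhibitor gene Serpina3g rose by 8.55 and had no called difference.

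Promoters of the leading interferon genes are shown because the members moved together and known factor motifs could be searched for in them. RefSeq start sites of GRCm38.p6 gave a window of 250 bases before and 50 after the start for 10404 of the 15024 genes. Searched on both strands were the core of the interferon-stimulated response element (ISRE), which is GAAA, any 2 bases and GAAA, the gamma-activated site, TTCNNNGAA, and the NF-kappaB consensus. The 250 bases upstream of the start are printed 5′ to 3′ on the strand of the gene, with matches in capitals. They cover chr16:10785537-10785786 on the minus strand for Socs1, chr11:53769764-53770013 on the plus strand for Irf1 and chr5:114922990-114923239 on the plus strand for Oasl1.
Socs1: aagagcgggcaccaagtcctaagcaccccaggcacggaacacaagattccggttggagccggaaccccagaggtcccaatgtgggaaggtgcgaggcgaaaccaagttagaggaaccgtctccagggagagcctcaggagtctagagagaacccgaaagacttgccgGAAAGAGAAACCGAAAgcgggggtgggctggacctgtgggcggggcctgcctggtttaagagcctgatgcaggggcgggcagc
Irf1: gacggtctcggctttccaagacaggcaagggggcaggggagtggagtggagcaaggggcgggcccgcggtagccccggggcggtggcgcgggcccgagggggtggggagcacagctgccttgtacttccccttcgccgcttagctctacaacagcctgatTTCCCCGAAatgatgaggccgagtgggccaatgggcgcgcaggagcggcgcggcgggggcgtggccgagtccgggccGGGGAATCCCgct
Oasl1: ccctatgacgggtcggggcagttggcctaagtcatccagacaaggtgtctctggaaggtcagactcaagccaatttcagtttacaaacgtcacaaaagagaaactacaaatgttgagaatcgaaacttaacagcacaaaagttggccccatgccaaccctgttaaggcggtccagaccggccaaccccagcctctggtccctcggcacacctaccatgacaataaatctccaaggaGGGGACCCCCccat

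Socs1 holds 2 overlapping matches of the ISRE core, beginning at -83 and -77 from the start. Irf1 holds a gamma-activated site match at -90 and an NF-kappaB match at -13, and a second RefSeq window of Irf1 held none. Oasl1 holds an NF-kappaB match at -14. These 3 genes were chosen after their matches were seen. Among all genes with a window, 3.88% held the ISRE core, 8.4% the gamma-activated site and 6.31% the NF-kappaB consensus. Of the 33 type I interferon genes with a window, 48.5% held the ISRE core. For the 29 interferon gamma genes the shares were 41.4% for the ISRE core and 37.9% for the gamma-activated site, and 45.5% of 22 NF-kappaB genes held the NF-kappaB consensus. Genes that rose under knockdown held the ISRE core in 5.89% of windows and genes that fell in 2.64%. A match describes letters only, and a window without a match says nothing of the factor.

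Inflammatory cytokines rose in knockdown cells. Their difference from NS was called lower for 4 of 20 and higher for 2, near the 14.2% and 13.1% of all genes. Of 20 tested cytokine genes 18 rose and 1 fell, with a median log2 fold change of 3.86 against 4.31 in NS cells. Il12b, which encodes the subunit shared by interleukins 12 and 23, lay at 1.88, 1.76 and 2.38 CPM in M0 KD and 98.3 and 214 CPM in M1 KD. M1 NS libraries held 840.5, 768 and 438 CPM, so both knockdown libraries lay below all of them. The log2 fold change was 6.28, SE 0.37, adjusted p = 8.36e-08 under knockdown and 9.74 with NS, with a called difference of -3.47 (SE 0.49, adjusted p = 0.000559). Il12b lies at chr11:44400063-44414033 of GRCm38.

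Tnf, an early cytokine of the response, rose from 18.6, 13.5 and 20.1 to 324 and 180.1 CPM under knockdown and from 19.5, 20 and 17.5 to 659, 727 and 553 CPM with NS. The groups within each gapmer did not overlap. Its difference of -1.23 was called (SE 0.33, adjusted p = 0.0157) and was not called without M1 KD replicate 6 (-0.867). Il1a, a cytokine released on cell damage, reached 71.6 and 106 CPM in M1 KD against 258, 219 and 359 CPM in M1 NS, a called difference in response of -1.74. Tnfsf9, the ligand of 4-1BB, also rose less (-1.15), a difference not called without M1 KD replicate 6 (-0.939), M0 KD replicate 4 (-0.97) or M0 NS replicate 2 (-1.05). Il6, a cytokine of the acute phase, rose from 0.874, 0.844 and 1.06 to 118 and 344 CPM, by 7.95 against 9.23 with NS. Il1b, processed by the inflammasome, rose from 18.4, 15 and 22.2 to 246 and 1104 CPM, by 5.19 against 6.69. The differences for Il6 (-1.28) and Il1b (-1.51) were not called, and were called without M1 KD replicate 6 (-2.25 and -2.96), the library with the higher level of both. They were also called without a filter on low counts (-1.25 and -1.48), and Il1b with DESeq2 (-1.46).

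Osm, a cytokine of the interleukin 6 family, rose by 2.55, with a called higher response than with NS (1.17). Il1rn, the natural antagonist of interleukin 1, and Il27, a regulator of T cells, rose by 4.63 and 5.92 with no called difference, though Il1rn had one without M0 KD replicate 4 (1.14). Il10, the main suppressive cytokine of macrophages, was the 1 member that fell, with a log2 fold change of -1.67, and its level was 2.08, 1.13 and 3.52 CPM in M0 KD and 1.02 and 0.366 CPM in M1 KD. The fall was not called without M1 KD replicate 6 (-1.15) or M0 KD replicate 4 (-1.18), with the knockdown groups alone (-1.58) or with limma-voom (-1.65). Its NS response was 0.073, not called.

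The genes for nitric oxide and itaconate synthesis rose. Nos2, the inducible nitric oxide synthase at chr11:78920787-78960254, lay at 6.63, 8.85 and 9.51 CPM in M0 KD and 5641 and 5669 CPM in M1 KD, with 3875, 4198 and 3851 CPM in M1 NS. Its log2 fold changes of 9.40, SE 0.29, adjusted p = 1.54e-09 under knockdown and 9.48 with NS differed by -0.079 (SE 0.31), which was not called. Irg1, also known as Acod1, the enzyme that makes itaconate, reached 4627 and 4516 CPM and rose by 7.34 against 7.95, again with no called difference (-0.61). Of the 10 genes of this list 9 rose and none fell under knockdown. Slc7a2, a carrier of arginine, rose less than with NS (5.65 against 7.78, a called difference of -2.13), while Odc1, the first enzyme of polyamine synthesis, rose more (2.51 against 1.53, called difference 0.98). Arg1, the arginase of alternative activation, stayed under 0.4 CPM in all 5 knockdown libraries. With NS it rose (2.82), but not without M0 NS replicate 1 or 2 or M1 NS replicate 4 or with limma-voom (1.34 to 2.68). Its difference of -3.55 was not called with all libraries. It was called with DESeq2 (-3.5), without a filter on low counts (-3.53) and without M0 KD replicate 1 (-4.04) or M1 NS replicate 2 (-3.98).

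Surface ligands for T cells were also in place. Of 12 costimulatory and checkpoint ligands 8 rose and 1 fell, with medians of 3.39 under knockdown and 3.28 with NS. Cd274, which encodes PD-L1, rose from 73.2, 61.5 and 84.6 to 4046 and 4725 CPM (5.91, SE 0.25, adjusted p = 9.55e-09). Cd40, the receptor of CD40 ligand, rose by 7.37, Cd86, a ligand of CD28, by 3.74, and Slamf7, a self-ligand of immune cells, by 4.16. With all libraries none of these 4 had a called difference from NS. That of Cd274 (0.68) was called with DESeq2 (0.721), with the length and GC trend removed (0.842) and without M0 NS replicate 4 (0.867), and that of Cd86 (0.49) without M0 NS replicate 4 (0.716). Cd80, the other CD28 ligand, was not called under knockdown (0.39) and rose with NS (1.72), a called difference of -1.33. That call was lost without M1 KD replicate 5 (-0.872), M0 NS replicate 4 or M1 NS replicate 1 (both -1.19), and Cd80 rose under knockdown without M1 KD replicate 5 (0.849). Over the list the difference was called higher for none and lower for 1 with all libraries, and higher for 2 and lower for none without that replicate. 4632428N05Rik, which encodes the checkpoint protein VISTA, fell, with a log2 fold change of -2.81.

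In the eicosanoid pathway 6 of 15 genes rose and 8 fell. Ptgs2, the inducible cyclooxygenase, rose from 8.43, 9.33 and 11.2 to 2188 and 2815 CPM, below the 4238, 3543 and 4293 CPM of M1 NS, with a called difference of -1.49 (SE 0.25, adjusted p = 0.00158). Pla2g4a, the phospholipase that frees arachidonic acid, rose by 2.85 and had the lower response too (-1.09). Ptges, the prostaglandin E synthase, rose by 4.65 with no called difference. Mgll, which breaks down monoglycerides and endocannabinoids, went from 7.87, 7.26 and 12.5 to 33.1 and 29.0 CPM under knockdown and from 12.2, 9.54 and 7.23 to 2.13, 3.40 and 3.30 CPM with NS. It thus rose in one setting (1.76) and fell in the other (-1.72), with a called difference of 3.48. Ltc4s, the leukotriene C4 synthase, and Alox5ap, the partner of 5-lipoxygenase, fell in both, and less under knockdown (called differences of 2.78 and 1.40). Neither difference was called without M1 KD replicate 5 (1.95 and 1.09).

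NF-kappaB subunits, targets and feedback genes rose almost throughout. Of 28 genes 25 rose and none fell, with a median of 2.90 against 2.64 with NS. Gadd45b, a stress gene downstream of NF-kappaB, lay at 33.5, 33.8 and 28.3 CPM in M0 KD and 1021 and 915 CPM in M1 KD, above the 418, 467 and 262 CPM of M1 NS. Its response of 4.92 exceeded that of NS by 1.67 (SE 0.31, adjusted p = 0.00234). Ripk2, the kinase downstream of NOD receptors, rose by 3.20 against 3.35, with no called difference. The inhibitor genes Nfkbia and Tnfaip3 rose by 2.99 and 3.04, also with none, except for Nfkbia without M1 KD replicate 6 (0.822). The coactivator gene Bcl3 had a called higher response (1.15, not called with the length and GC trend removed at 0.599), and Irak3, a brake on Toll-like receptor signalling, a called lower response (-1.39). The 3 genes that were not called under knockdown were Ikbke (0.14), Map3k8 (0.32) and Cyld (0.34), named after their values were seen. Cyld was called with the knockdown groups alone (0.428) and with the length and GC trend removed (1.05).

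Some chemokine ligands rose with either gapmer, while others rose with NS and were not called under knockdown. Of 22 tested genes 11 rose and 4 fell under knockdown, while 16 rose and 6 fell with NS. Of the 16 that rose with NS 5 were not called under knockdown, near the 29.3% over all genes that rose with NS. The difference was called higher for 4 and lower for 4, beside 13.1% and 14.2% of all genes. It was called lower for 2 without M1 KD replicate 6. The ligands of CXCR3 rose strongly. Cxcl9 rose from 5.27, 7.47 and 8.93 to 3435 and 6681 CPM (9.45, SE 0.37, adjusted p = 6.26e-09), Cxcl10 from 23.7, 22.9 and 62.3 to 2443 and 3842 CPM, and Cxcl11 from 0.231, 0.603 and 0.705 to 169 and 186 CPM. Their log2 fold changes were 9.45, 6.44 and 8.4, and none differed from NS by a called amount. Ccl5, an attractant of T cells and monocytes, reached 3983 and 5720.5 CPM in M1 KD and 4069, 4794 and 3249.8 CPM in M1 NS, and its difference of 0.46 was not called. Cxcl16, a scavenger receptor that is shed as a chemokine, rose more under knockdown, with a called difference of 1.40. Ccl8, a monocyte chemoattractant, rose by 8.66. Its difference of 2.80 was called with all libraries but not without M1 KD replicate 6 (2.47), M0 KD replicate 1 or 2 or M0 NS replicate 2 (1.98 to 2.56), nor with limma-voom (2.88).

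Ccl3 and Ccl4, neighbouring genes on chromosome 11 that encode macrophage inflammatory proteins, were not called in knockdown cells. Ccl3, at chr11:83647844-83649355, lay at 33.1, 27.6 and 40.6 CPM in M0 KD, 22.4 and 57.2 CPM in M1 KD and 244, 156 and 164 CPM in M1 NS. The M1 KD libraries fell on either side of the M0 KD range and below all M1 NS libraries. The log2 fold change was 0.23, SE 0.32, adjusted p = 0.547 under knockdown and 2.85 with NS, with a called difference of -2.61 (SE 0.44, adjusted p = 0.00151). Ccl4, at chr11:83662584-83664683, lay at 15, 15.7 and 19.3 CPM in M0 KD, 6.75 and 24.9 CPM in M1 KD and 139, 117 and 56.1 CPM in M1 NS, with responses of -0.082 and 3.04 and a called difference of -3.12. The difference was called without either M1 KD library for both genes. The knockdown response itself depended on them: without replicate 5 Ccl3 was called higher (0.754), and without replicate 6 Ccl4 was called lower (-1.3) and Ccl3 stood at -0.592. Its sign also turned for Ccl3 when libraries were scaled by their size alone (-0.263).

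Values of Ccl2, the main attractant of monocytes, rested on single libraries. It lay at 13.6, 14.3 and 61.7 CPM in M0 KD, where replicate 4 stood apart, and at 80.4 and 55.3 CPM in M1 KD. The response of 1.18 was not called with all libraries and was called without M0 KD replicate 4 (2.28), with limma-voom (1.52), without a filter on low counts (1.16) and with limma on the normalized values (1.61). Its difference from NS of -2.88 was called with all libraries but not without M1 KD replicate 5 or 6, M0 NS replicate 1 or 2 or M1 NS replicate 4 (-3.18 to -2.46). Ccl7, a neighbour of Ccl2 with related activity, was not called under knockdown (0.83) and rose with NS (3.62), a called difference of -2.78 that was not called without M1 KD replicate 6 (-2.43). Under knockdown Ccl7 was called without M0 KD replicate 4 (1.87) and without a filter on low counts (0.814). Ccl6, a ligand of resting cells, fell in both, with log2 fold changes of -2.04 under knockdown and -3.82 with NS and a called difference of 1.78.

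**Figure D3:**
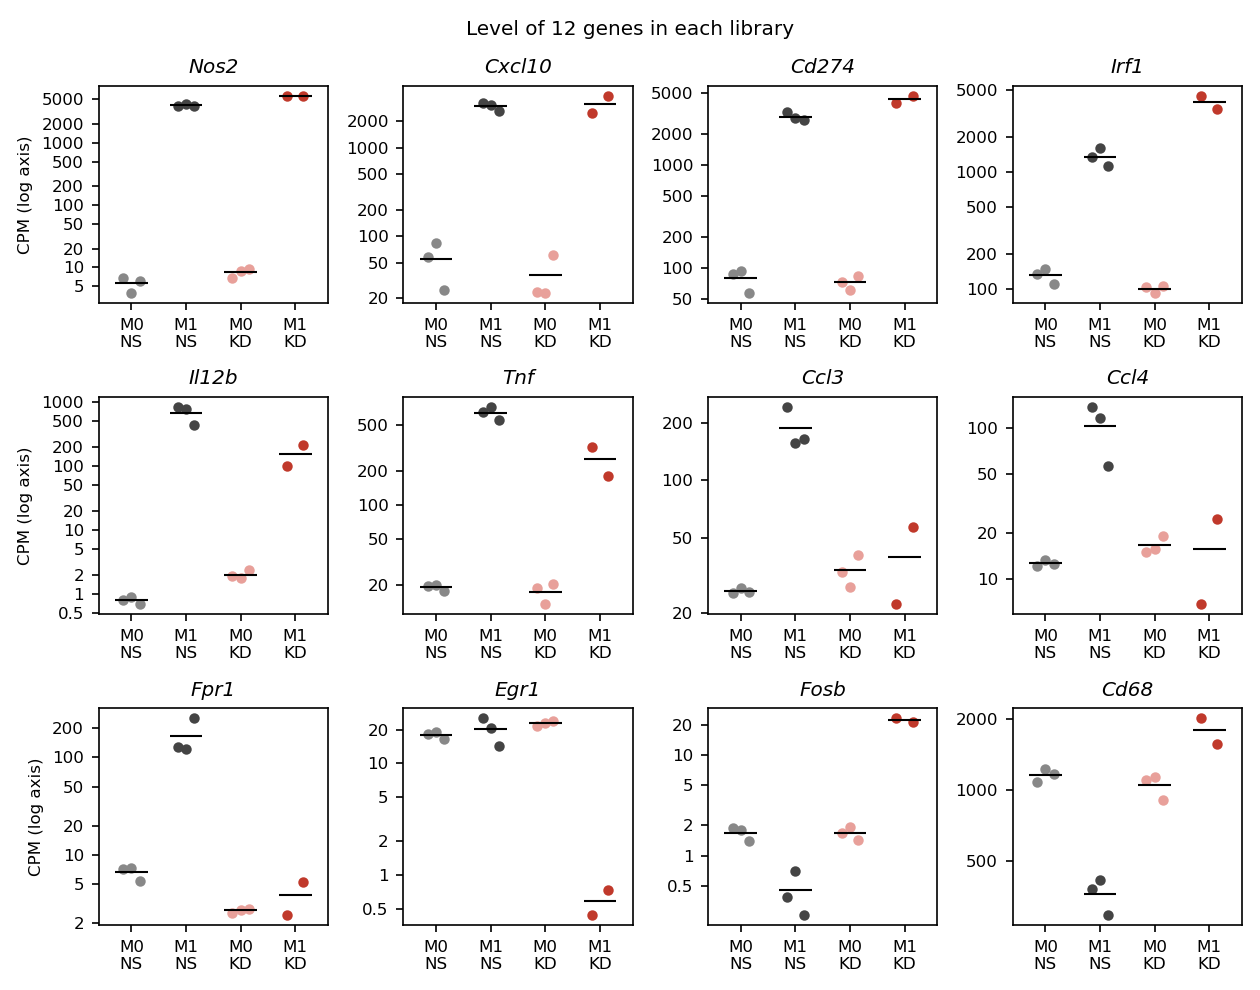
Level of 12 genes in each library, as CPM on a log axis, with the group mean as a line. Nos2, Cxcl10, Cd274 and Irf1 are high in M1 with either gapmer, Ccl3, Ccl4 and Fpr1 are high in M1 NS alone, Egr1 is low and Fosb high in M1 KD alone, and Cd68 is low in M1 NS alone.

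Receptors for chemoattractants fell in activated knockdown cells, and several fell further than with NS. Of 17 tested genes 13 fell and 3 rose under knockdown. The same 13 fell with NS, where 4 rose. The difference was called lower for 7 and higher for 2, beside 14.2% and 13.1% of all genes. C5ar1, a receptor for the complement fragment C5a, dropped from 284, 312 and 331 CPM in M0 KD to 6.42 and 8.16 CPM in M1 KD, below the 33.7, 37.8 and 51.5 CPM of M1 NS. Its response of -5.41 lay below that of NS by -2.48, a called difference (SE 0.25, adjusted p = 0.000114). C5ar2, the related receptor, did likewise, with responses of -5.43 and -3.57 and a called difference of -1.86. The monocyte receptor gene Ccr2 also had a called lower response (-2.13).

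Fpr1, a receptor for formylated bacterial peptides, rose with NS and was not called under knockdown. It lay at 2.54, 2.75 and 2.80 CPM in M0 KD and 2.41 and 5.27 CPM in M1 KD, ranges that overlapped, and at 126, 122 and 254 CPM in M1 NS. The knockdown response of 0.49, SE 0.37, adjusted p = 0.274 was not called and fell to -0.00109 with library size alone as the scale, and to -0.16 without M1 KD replicate 6. The NS response was 4.66 and the called difference -4.17 (SE 0.49, adjusted p = 0.000226). Fpr2, the related receptor, rose in both but less under knockdown (called difference -2.14, not called without M1 KD replicate 5 at -1.82). Ccr7, which guides cells to lymph nodes, rose from 0.643, 1.06 and 1.18 to 112 and 581 CPM, with a wide gap between the M1 KD libraries. Its response of 8.48 had no called difference from NS (0.89), except without a filter on low counts (0.925). Ccr7 is also a marker of migrating dendritic cells, and the 8 dendritic cell markers summed to 7.76 to 15.7 CPM in M0 KD and to 133 and 620 CPM in M1 KD, most of it Ccr7, a move whose part in the result was not tested. Cxcr4, the receptor of CXCL12, fell less under knockdown (-2.62 against -5.01, called difference 2.39).

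Adhesion and migration genes moved in both directions, with 11 of 36 higher and 13 lower, shares near those of all genes. The difference from NS was called higher for 6 and lower for 9, beside 13.1% and 14.2% of all genes. The called differences named here are all from the lower group. The integrin gene Itga6 fell from 267, 286 and 233 to 8.31 and 5.63 CPM (-5.23), with no called difference from NS except without M1 NS replicate 2 (-0.839). Dock8, an activator of the GTPase CDC42 in moving leukocytes, fell from 308, 339 and 295 to 28.1 and 34.6 CPM, below the 100.3, 86.3 and 137 CPM of M1 NS, a called difference of -1.88. Coro1a and Actr3, which shape the actin network, fell under knockdown (-1.98 and -1.08) against -0.20 and 0.20 with NS, and both differences were called (-1.78 and -1.28). The integrin gene Itga5 rose less under knockdown than with NS (called difference -1.51). The median of the list, -0.10, turned to 0.0138 with the length and GC trend removed.

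Pattern recognition genes were divided as well. Of 29 genes 13 rose and 9 fell under knockdown, the latter near the 31.4% of all genes, and 16 rose and 8 fell with NS. The knockdown median was 0.314, or -0.168 with library size alone as the scale. The cytosolic sensor gene Nod1 rose from 49.8, 46.5 and 49.4 to 296 and 355 CPM (2.75, with no called difference), and the inflammatory caspase gene Casp4 from 30, 24.1 and 33.6 to 362 and 359 CPM. The Casp4 difference of 0.84 was called with all libraries, but not without replicate 1 or 2 of M0 KD or of M0 NS, either M1 KD library or M1 NS replicate 2 (0.653 to 0.864), nor with library size alone (0.737). The inflammasome sensor Nlrp3 rose less than with NS, by a called difference of -1.33. Tlr4, the lipopolysaccharide receptor, fell by log2 fold changes of -3.45 under knockdown and -1.22 with NS, a called difference of -2.23.

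Immediate early genes and the feedback genes of the ERK pathway changed in different directions under knockdown. These genes code for short-lived transcription factors and for phosphatases and adaptors that limit MAP kinase signals. Of 30 tested genes 15 rose and 10 fell under knockdown, against 14 and 6 with NS. A called difference was found in 17 of the 30, 6 higher and 11 lower. The knockdown median of 0.199 turned to -0.293 with library size alone as the scale.

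Genes with the lower response included EGR factors and ERK feedback genes. Egr1, a transcription factor downstream of ERK, lay at 21.7, 22.8 and 23.9 CPM in M0 KD and at 0.439 and 0.731 CPM in M1 KD. With NS it lay at 18.3, 19.2 and 16.6 CPM in M0 and 25.5, 20.9 and 14.2 CPM in M1, ranges that overlapped. The responses were -5.31, SE 0.31, adjusted p = 7.54e-08 under knockdown and 0.16 with NS, and the difference of -5.47 was called (SE 0.36, adjusted p = 2.12e-05). Egr2 and Egr3, its relatives, fell in both and further under knockdown (called differences -1.86 and -3.15). That of Egr2 was not called without M1 KD replicate 6 (-1.73) or with limma-voom (-1.78). Dusp6, the phosphatase of ERK, fell by a log2 fold change of -2.84 against 0.22, not called, with NS, a called difference of -3.07. Fosl1, an AP-1 subunit, rose with NS to 6.81, 7.17 and 5.50 CPM but lay at 0.220 and 0.183 CPM in M1 KD, below the 0.488, 0.482 and 0.539 CPM of M0 KD. Its fall under knockdown was called (-1.30) in the fit of all groups and not with the knockdown groups alone (-1.21), and the difference of -5.09 was called.

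Genes with the higher response included other AP-1 and Kruppel-like factors. Fosb, an AP-1 subunit, rose from 1.67, 1.95 and 1.43 to 23.4 and 21.1 CPM under knockdown and fell from 1.91, 1.79 and 1.40 to 0.392, 0.713 and 0.258 CPM with NS. The responses of 3.72 and -1.95 gave a called difference of 5.67 (SE 0.41, adjusted p = 3.46e-05). Junb, its partner, reached 1681 and 1713 CPM in M1 KD against 638, 781 and 468 CPM in M1 NS, and Klf4, a factor of monocyte development, 104 and 99.0 CPM against 35.1, 35.5 and 30.4 CPM. Both had called differences (1.82 and 1.79). Dusp1, the phosphatase of p38 and JNK, rose by 3.42 with no called difference.

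**Figure D4:**
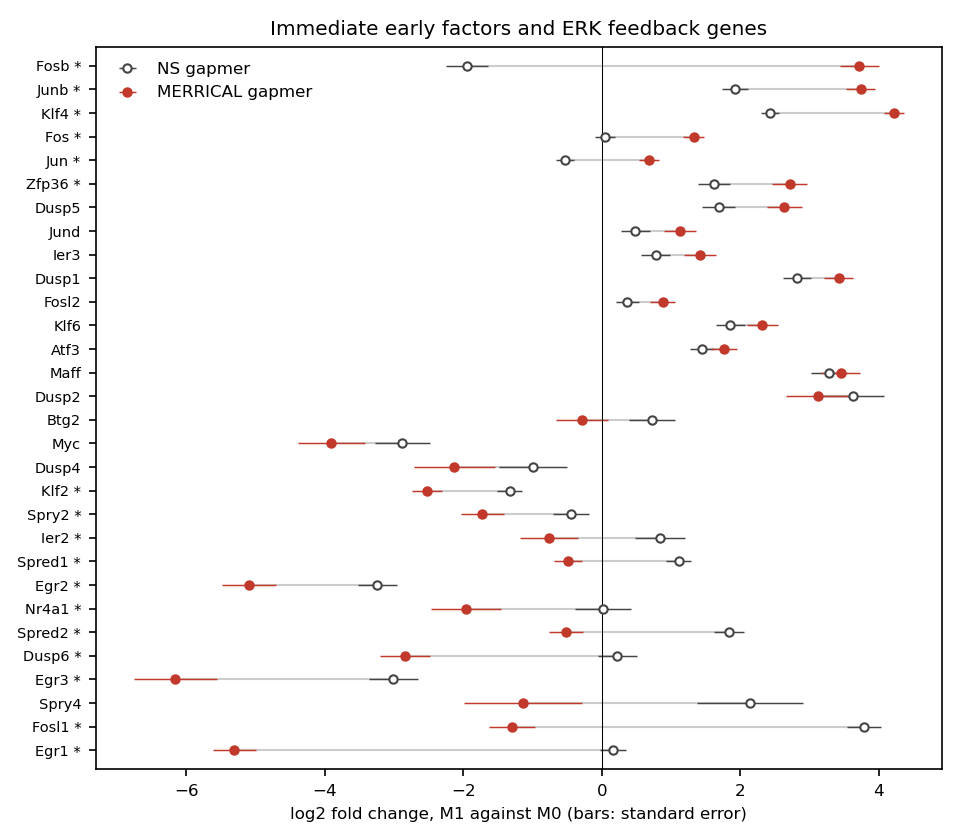
Log2 fold change between M1 and M0 of each tested immediate early or ERK feedback gene, with NS (open circles) and under knockdown (red circles). Bars are standard errors and a star marks a called difference. Fosb, Junb and Klf4 are at the top with the higher knockdown response, and Egr1, Fosl1, Egr3 and Dusp6 near the bottom with the lower.

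Most glycolysis genes rose under knockdown. Of 24 genes of glycolysis and the hypoxia response 19 rose and 1 fell, with a median of 1.47 against 1.97 with NS. Hk3, a hexokinase of myeloid cells, rose from 269, 284 and 270.0 to 2472 and 2661 CPM (3.23 against 3.17 with NS, no called difference). Vegfa, the vascular growth factor, rose from 71.9, 69.1 and 102 to 843 and 1079 CPM, above the 280.2, 275 and 412 CPM of M1 NS, a called difference of 1.63 (SE 0.30, adjusted p = 0.00234). The difference was called lower for 4 of the 24 genes with all libraries, near the 14.2% of all genes. That count was 2 without M1 KD replicate 5 and 1 without replicate 6. The 4 were Hif1a, the oxygen-regulated factor (-1.28), the glycolytic genes Pgk1 and Hk1 (-0.82 and -0.81), and Pdk1 (-0.84). Hif1a (-0.927) and Pdk1 (-0.876) were not called without replicate 5, and Pgk1 (-0.688), Hk1 (-0.65) and Pdk1 (-0.8) were not without replicate 6. Each of the 4 also lost the call without at least 1 of the other groups' libraries, M0 NS replicate 1 for all but Hif1a and M0 KD replicate 4 for all but Hk1. Pdk1, which restrains entry of pyruvate into mitochondria, was the 1 gene of the list that fell under knockdown (-1.09).

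Most nuclear genes of the respiratory chain, 34 of 46, rose under knockdown, and 23 rose with NS. Cycs, cytochrome c, rose by 2.16 with no called difference, and the complex I gene Ndufs3 by 1.32 with a called difference of 0.76. A called difference was found in 7 of the 46, and 6 of them were higher, near the 13.1% of all genes. The difference was called higher for 1 and lower for 2 without M1 KD replicate 5, for 2 and 2 with library size alone, for 4 and 4 with the length and GC trend removed and for 12 and none with upper-quartile scaling. Under knockdown 16 rose and 4 fell with library size alone. Of 11 mitochondrially encoded transcripts 4 were lower, near the 31.4% of all genes, and none was higher. Their median was -1.02, and the falls were led by mt-Nd1 (-2.25) and mt-Nd2 (-2.23).

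Most antioxidant genes rose. Of 21 NRF2 antioxidant genes 14 rose and 1 fell under knockdown, against 15 and 3 with NS. The medians were 0.837 under knockdown and 1.22 with NS. The difference was called higher for 3 and lower for 3, near the 13.1% and 14.2% of all genes. The genes named here are those with a higher response. Sqstm1, the autophagy receptor p62, rose from 715, 728 and 487 to 6555 and 3733 CPM, above the 2144, 2601 and 2246 CPM of M1 NS (called difference 1.48). Fth1, the ferritin heavy chain, rose by 2.32 and had a called difference of 0.87, which was not called without M0 KD replicate 2 (0.822). Ferritin light chain Ftl1 had log2 fold changes of 0.81 under knockdown and -0.54 with NS, a called difference of 1.35, and its knockdown rise was not called with the length and GC trend removed (0.387) or with library size alone (0.323). With library size alone as the scale the NRF2 list had 9 higher and 4 lower.

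Of 25 genes of the unfolded protein and integrated stress response 13 rose and 2 fell. Trib3, a pseudokinase induced by ATF4, rose from 3.73, 4.10 and 2.11 to 85.9 and 78.8 CPM, with 19.9, 20.2 and 25.8 CPM in M1 NS, a called difference of 1.63 that was not called with the length and GC trend removed (1.06). Ddit3, the factor CHOP, and Ddit4, an inhibitor of mTORC1, had called differences of 2.38 and 2.53. Mthfd2, a mitochondrial enzyme of folate metabolism, rose by 3.16, and its difference of 0.59 was not called without M1 KD replicate 6 (0.543), M0 KD replicate 1 (0.549) or M0 NS replicate 2 (0.521), nor without a filter on low counts (0.618). Hyou1, a chaperone of the endoplasmic reticulum, was not called under knockdown (0.026, or called at -0.463 with library size alone) and had a called lower response than NS (-1.11). With library size alone as the scale 12 genes of the list rose and 10 fell, and with the knockdown groups alone none fell.

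Lipid genes moved in both directions under knockdown. Of 29 tested genes of cholesterol efflux, LXR signalling and lipid uptake 9 rose and 11 fell under knockdown, shares near those of all genes. With NS 7 rose and 20 fell. The difference was called higher for 12 and lower for 4 (2 without M1 KD replicate 6). With library size alone as the scale 6 rose and 18 fell under knockdown. Fabp5, a fatty acid carrier, lay at 699, 654 and 449.9 CPM in M0 KD and 607 and 346 CPM in M1 KD, ranges that overlapped, while M1 NS held 47.5, 54.5 and 84.9 CPM. Its response was -0.33, SE 0.29, adjusted p = 0.34 under knockdown and -3.50 with NS, with a called difference of 3.17, and the knockdown value was called with library size alone (-0.812). Trem2, a lipid receptor of macrophages, lay at 956, 1027 and 757 CPM in M0 KD, 821 and 399.9 CPM in M1 KD and 78.8, 106 and 47.9 CPM in M1 NS. Its knockdown response of -0.58 was not called with all libraries and was called without M1 KD replicate 5 (-1.2), with library size alone (-1.06) and without a filter on low counts (-0.592), and the difference from NS was 3.10, which was called (SE 0.44, adjusted p = 0.000597). Lgals3, a gene of lipid-laden macrophages, rose under knockdown (1.51) and fell with NS (-0.95), with a called difference of 2.46.

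Other lipid genes leaned the other way or had no called difference. Hilpda, a lipid droplet protein, rose from 4.70, 5.40 and 7.48 to 278 and 303 CPM. Its difference of 0.78 was not called with all libraries and was called without M0 KD replicate 4 (0.999), without M1 NS replicate 4 (1.02) and without a filter on low counts (0.807). Acsl1, which activates fatty acids, rose by 3.76, less than with NS (-1.26, not called without M1 KD replicate 6 at -1.03). Lrp1, an endocytic receptor, fell further under knockdown (called difference -2.04). Of 24 cholesterol synthesis genes 12 fell and 4 rose. Stard4, a sterol carrier, fell to 2.31 and 1.90 CPM from 21.9, 23.9 and 25.7 CPM, further than with NS (-1.77), and Dhcr7, the last enzyme of the pathway, fell from 17.4, 16.3 and 15.5 to 4.91 and 4.53 CPM, less than with NS (0.97). Both differences were called.

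Markers of the resting state fell under knockdown. Of 24 tested markers of resting or alternatively activated macrophages 19 fell and 2 rose, with a median of -3.25 against -4.64 with NS. Cd163, the scavenger receptor for haemoglobin, fell from 35.8, 33.6 and 67.5 to 0.467 and 0.914 CPM (-6.08, SE 0.44, adjusted p = 3.91e-07), with no called difference from NS. F13a1, a transglutaminase of resident macrophages, fell from 60.7, 75.4 and 75.4 to 0.521 and 1.5 CPM with none either. Mrc1, the mannose receptor, lay at 502, 485 and 1067 CPM in M0 KD, 68.7 and 49.4 CPM in M1 KD and 11.1, 8.47 and 4.93 CPM in M1 NS. It fell in both, and less under knockdown (-3.53 against -5.79, called difference 2.26). Stab2, a scavenger receptor, had a called difference of 1.90 that was not called without M1 KD replicate 5 (1.67) or with limma-voom (1.95). Maf, a transcription factor, fell further under knockdown (called difference -2.44). Tgfbr2, a receptor of TGF-beta, fell by a log2 fold change of -2.34 with no called difference.

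Genes that define macrophages were mixed, with 10 of 24 higher and 7 lower. The median of 0.214 turned to -0.0131 without M1 KD replicate 6, to -0.0514 with the length and GC trend removed and to -0.274 with library size alone. Cebpb, a factor of the inflammatory response, rose from 37.8, 35.2 and 27.6 to 561 and 512 CPM, above the 145, 166 and 135 CPM of M1 NS, with a called difference of 2.58 (SE 0.24, adjusted p = 6.62e-05). Cd68, a glycoprotein of late endosomes and lysosomes at chr11:69664213-69666153, lay at 1095, 1135 and 903 CPM in M0 KD and 2018 and 1557 CPM in M1 KD. With NS it went from 1079, 1221 and 1163 to 379.6, 413 and 294 CPM, so the gapmers gave opposite directions (0.78 and -1.67, called difference 2.45). The knockdown rise was not called without M1 KD replicate 5 (0.572) or with library size alone (0.293).

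Lysosomal genes moved in both directions under knockdown, and their called differences from NS all had the same sign. Of 34 genes 12 rose and 12 fell under knockdown, shares near those of all genes, whereas 5 rose and 20 fell with NS. In 22 genes the knockdown response was called higher than that of NS and in none lower, with a median difference of 0.985 against -0.0171 over all genes. Without either M1 KD library, with the length and GC trend removed and with the other scalings in turn, 17 to 22 genes had a called higher response and none a lower. Ctsz, a cathepsin, rose from 716, 769 and 791 to 3978 and 3112 CPM under knockdown and reached 2095, 2652 and 1955 CPM in M1 NS (called difference 1.12). Ctsh, another cathepsin, rose from 319.6, 322 and 297 to 1041 and 1140.2 CPM (called difference 0.98). The aspartic protease gene Ctsd had log2 fold changes of -0.67 under knockdown, not called without M1 KD replicate 6 (-0.387), M0 KD replicate 1 (-0.628) or 2 (-0.584) or with the knockdown groups alone (-0.584), and -2.29 with NS. Mcoln1, the calcium channel of lysosomes, rose under knockdown alone (1.49 against 0.073), each with a called difference (1.61 and 1.41). The counts within knockdown cells were less firm than the difference, at 7 higher and 13 lower without M1 KD replicate 5 and 4 higher and 15 lower, with a median of -0.246, with library size alone.

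**Figure D5:**
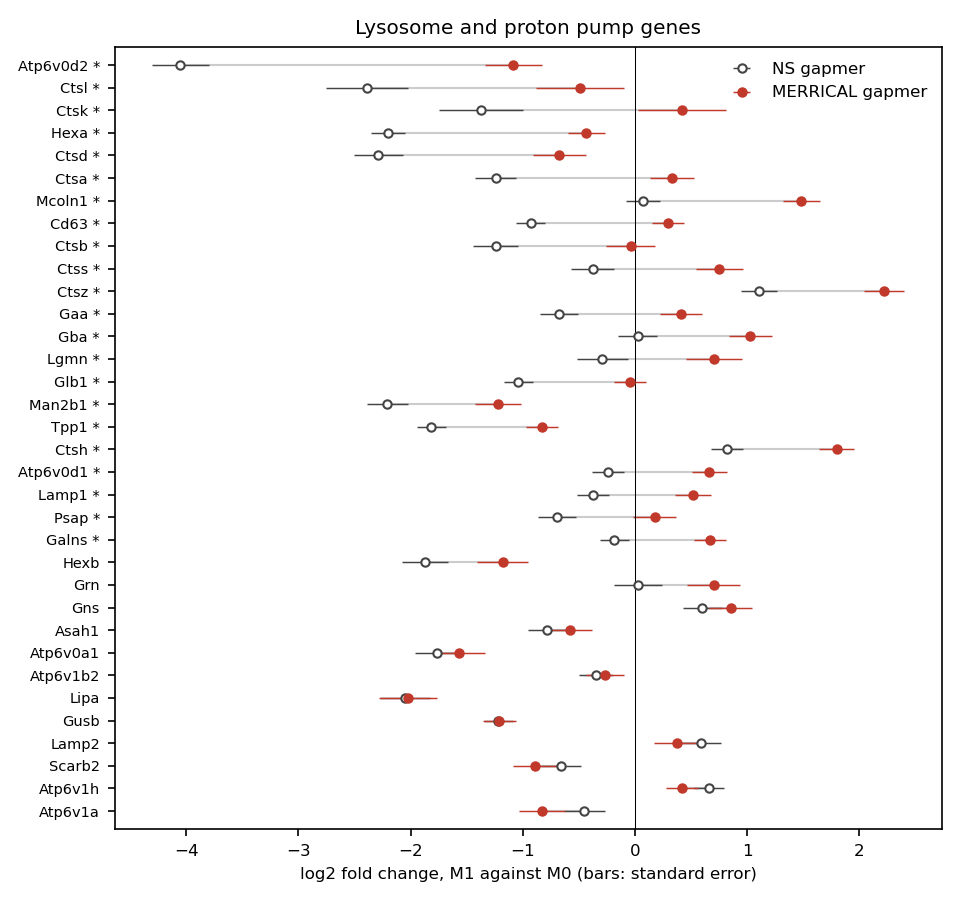
Log2 fold change between M1 and M0 of each tested lysosome or proton pump gene, with NS (open circles) and under knockdown (red circles). Bars are standard errors and a star marks a called difference. The 22 starred genes all have the red circle to the right of the open circle.

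Cell division genes fell in knockdown cells. In the list of 52 genes for cell cycle and replication 39 fell and 3 rose, with a median of -2.00 against -1.48 with NS. Cenpf, a kinetochore protein, fell from 15.9, 19.1 and 19.4 to 0.357 and 0.549 CPM (-5.34, SE 0.29, adjusted p = 4.56e-08) with no called difference, and Kif11, a spindle motor, fell from 21.0, 24.1 and 26.5 to 0.878 and 0.475 CPM. The Kif11 difference of -1.68 was called, but not with the length and GC trend removed (-1.21). Among the 3 genes that rose were Ccne1, cyclin E1 (3.38), and the spindle factor gene Tpx2 (2.32), named after their values were seen.

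Most cytosolic ribosomal protein genes rose under knockdown, and few rose with NS. Of 50 genes 41 rose and none fell, with a median of 0.715, against 2 higher and 11 lower with NS, and 35 had a called higher response. Rps24 rose from 224, 226 and 239.9 to 877 and 950.2 CPM and Rpl24 from 51.2, 56.6 and 53.5 to 175 and 131 CPM, with called differences of 1.07 and 0.99 (the latter not without M1 KD replicate 5, at 0.768). The counts depended on single libraries and on scaling: 16 rose without M1 KD replicate 5 and 45 without replicate 6, 25 with the length and GC trend removed, and 6 rose and 1 fell with library size alone. The called higher responses were 11 without replicate 5. These genes have short transcripts, and over all genes the knockdown response moved with transcript length, from a median log2 fold change of 0.241 in the class with the shortest transcripts, of 4 equal classes, to -0.484 in the class with the longest. With NS the same medians were 0.0599 and -0.0855. By GC content the knockdown medians ran from -0.415 in the lowest class to 0.215 in the highest. Reads of ribosomal protein genes can be shared with pseudogenes, and the part of these factors in the result was not tested.

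The genes with the largest changes in knockdown cells mostly had no called difference from NS. The rule for the largest rises took Cxcl9, Nos2, Serpina3g, Ccr7, Socs1 and Clic5, a chloride channel protein, which rose from 1.36, 1.88 and 1.72 to 577 and 584 CPM. The largest falls included Kctd12b (-7.73), the ubiquitin ligase gene Rnf150 (-6.63), the adhesion receptor gene Emr4 (-6.60) and Arhgap19, a GTPase-activating protein (-6.58). With all libraries none of these had a called difference except Socs1. That of Kctd12b (-1.29) was called with DESeq2 (-1.23), without a filter on low counts (-1.26) and without M1 NS replicate 2 (-1.56). Abcd2, a peroxisomal fatty acid transporter, fell from 58.4, 60.5 and 42.4 to 0.576 and 0.622 CPM, and its difference of -2.72 from NS was called with all libraries. It was not called without replicate 1 or 2 of M0 KD, any M0 NS library or either M1 KD library (-2.78 to -2.63), nor with limma-voom (-2.23), limma on the normalized values (-2.09) or the length and GC trend removed (-2.12).

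Some genes outside the lists had a lower response under knockdown than with NS. Peak1, a scaffold kinase of the cytoskeleton, rose with NS (0.46, not called with library size alone at 0.0724) and lay at 119, 134 and 150.4 CPM in M0 KD and 28.8 and 33.9 CPM in M1 KD, a called fall (-2.10). Itpripl2 gave -1.44 under knockdown and 0.87 with NS, and a gene known only by a clone name gave -2.19 and 0.54. Jag1, a Notch ligand, fell from 23.0, 19.5 and 24.6 to 6.61 and 3.07 CPM (-2.19, not called without M1 KD replicate 6 at -1.76). Its NS value was 1.36, a rise not called without M0 NS replicate 1, 2 or 4 (1.19 to 1.53) or M1 NS replicate 4 (0.33). That rise was also not called with the compared groups alone (1.37), library size alone (1.01), limma-voom (1.05) or limma on the normalized values (1.07). Psd3 and Kctd12 fell under knockdown (-4.10 and -2.96), with values of -0.49 and 0.35 with NS. The differences were called for each gene of this paragraph, at -2.55 for Peak1, -2.31 for Itpripl2, -2.73 for the clone-named gene, -3.56 for Jag1, -3.61 for Psd3 and -3.30 for Kctd12.

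Others had a higher response under knockdown. Gdf15, a stress-induced cytokine of the TGF-beta family, lay at 29.7, 35.3 and 23.2 CPM in M0 KD, 266 and 88.6 CPM in M1 KD and 16.4, 25.2 and 19.6 CPM in M1 NS, with responses of 2.59 and -0.68. Bbc3, the cell death gene PUMA, rose from 16.7, 20.8 and 20.9 to 73.3 and 69.2 CPM (1.87), with -0.48 with NS. Slc41a1, a magnesium transporter, rose by 2.09 against -0.36, and H2-K2, a class I gene whose reads can be shared with its relatives, by 2.57 against -0.81. Aph1c, a subunit of gamma-secretase, fell with NS (-3.71) and lay at 65.2, 59.3 and 60.1 CPM in M0 KD and 59.1 and 36.6 CPM in M1 KD (-0.36, not called with all libraries, and called at -0.756 without M1 KD replicate 5 and at -0.846 with library size alone). All 5 differences were called, from 2.35 for Bbc3 to 3.38 for H2-K2.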

How the data were processed

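RNA sequencing libraries of macrophages, 11 in all, were analysed from the count table that the authors deposited, which holds raw read counts per gene symbol. The build GRCm38, the trimmer Trimmomatic 0.36, the aligner STAR 2.5.2b and the counter featureCounts of Subread 1.5.2 are named per the submitters' processing notes. The sources used here do not say whether counting used strand or how reads shared by near copies were treated. A second deposited table holds a normalized signal, in which all values of a library equal its raw counts divided by the same constant; it entered an alternative only. The row with a blank gene name was left out; it held 9.65e-05% to 0.000305% of counts.

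Genes were kept with edgeR 4.0.16 (filterByExpr, minimum count 10, minimum total 15) under R 4.3.3, totals were scaled by TMM, and a robust quasi-likelihood model was fitted over all 11 libraries with a coefficient per group. Tests were two-sided, with Benjamini-Hochberg adjustment over 15024 genes and a threshold of 0.05. SE is the log2 fold change divided by the root of the F statistic. Nothing says that libraries of a group came from separate mice or cultures, so p-values measure the spread between libraries, which may be technical. Counts were simulated in which 100 genes changed 2-fold and 100 changed 4-fold among 14524 tested. In the comparison of M1 KD with M0 KD 59% of the former and 97% of the latter were called. Far fewer genes changed there than were called in the data, and none was drawn from the lowest levels. These shares therefore do not give the recovery in the data. The members and gene lists were chosen with earlier results of these data known. Named genes were the 6 largest rises and 6 largest falls under knockdown (mean log2 CPM of at least 3, groups not overlapping), the 2 called members with the smallest p of each activation, metabolism, stress, resting and growth list, the 6 largest differences between responses in each direction, the 4 with the smallest p of those present in NS and not under knockdown in each direction, and 18 genes set by name. Other list members were named after their values were seen. Some genes that the rule or the lists hold are not reported here. Promoters came from RefSeq on GRCm38.p6. Alternatives were limma-voom (limma 3.58.1), DESeq2 1.42.0, other scalings, filters and thresholds, removal of a trend in transcript length and GC content, and leaving out each library.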

Additional observations from a re-analysis of the deposited data

Results flagged for a closer look

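Among the genes named by rule, 55 reported here had a called difference between the M1 response under knockdown and the M1 response with NS, tested as an interaction in edgeR's quasi-likelihood model. The values below are knockdown minus NS on the log2 scale. Parts of the rule picked genes by this difference, so the count of 55 was partly fixed in advance. Over all genes 27.3% had such a call, a share the count cannot be set against. Groups of 2 or 3 libraries were too small for a search for single outlying libraries.

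Higher under knockdown were, in the interferon and NF-kappaB lists, Socs1 (1.33), Oasl1 (1.62), Irf1 (1.94) and Gadd45b (1.67). Among immediate early and macrophage factors these were Fosb (5.67), Junb (1.82), Klf4 (1.79) and Cebpb (2.58). In lipid and lysosome genes they were Mgll (3.48), Fabp5 (3.17), Trem2 (3.10), Dhcr7 (0.97), Cd68 (2.45), Ctsz (1.12) and Ctsh (0.98). Metabolic and stress genes gave Vegfa (1.63), Ndufs3 (0.76), Fth1 (0.87), Sqstm1 (1.48), Mthfd2 (0.59), Trib3 (1.63), Gdf15 (3.27) and Bbc3 (2.35). The remaining genes with the higher response were Casp4 (0.84), Stab2 (1.90), Mrc1 (2.26), Rps24 (1.07), Rpl24 (0.99), H2-K2 (3.38), Aph1c (3.34) and Slc41a1 (2.45).

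Lower under knockdown were the cytokine and chemokine genes Il12b (-3.47), Il1a (-1.74), Tnf (-1.23), Ccl2 (-2.88), Ccl3 (-2.61) and Ccl4 (-3.12), and the receptor genes Fpr1 (-4.17), C5ar1 (-2.48) and C5ar2 (-1.86). Egr1 (-5.47) and Fosl1 (-5.09) were the early genes among them. Eicosanoid and lipid genes gave Ptgs2 (-1.49), Pla2g4a (-1.09), Acsl1 (-1.26), Stard4 (-1.77) and Abcd2 (-2.72). The others were Dock8 (-1.88), Kif11 (-1.68), Peak1 (-2.55), Itpripl2 (-2.31), a gene known only by a clone name (-2.73), Psd3 (-3.61), Jag1 (-3.56) and Kctd12 (-3.30).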

How the results depend on the processing

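Each count and each named gene was recomputed under the alternatives in turn. Of the named-gene values 3883 kept their direction and side of the threshold, 33 gained a call, 87 lost it and 37 changed sign; 1240 list medians moved by less than the spread between libraries and 123 by more. Scaling by library size alone moved the median log2 fold change over the table to -0.595 under knockdown, -0.424 with NS and -0.118 in the difference. With it 2376 genes were higher and 7077 lower under knockdown, 2348 higher and 6447 lower with NS, and the share of calls that were higher fell from 46.1% to 25.1% under knockdown, from 48.5% to 26.7% with NS and from 48.0% to 38.5% in the difference. Upper-quartile scaling gave 59.2% for the difference. At an adjusted p under 0.01 the difference was called for 1956 genes (892 higher, 1064 lower). With a fold of 2 as the null it was 433 (196 higher, 237 lower), with 3682 under knockdown (1611 higher, 2071 lower) and 3217 with NS (1359 higher, 1858 lower).

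Leaving out each library in turn gave 7485 to 9364 calls under knockdown (3487 to 4537 higher, 3998 to 4866 lower), 7261 to 8633 with NS (3477 to 4137 higher, 3743 to 4496 lower) and 2949 to 4751 for the difference (1347 to 2323 higher, 1602 to 2515 lower). The share of genes that rose with NS and also under knockdown ran from 55.9% to 71.1%, its reverse from 60.0% to 69.8%, and the shares of genes that fell from 56.3% to 69.0% and 55.3% to 65.4%.

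No paired analysis was possible because the numbers of M1 KD occur in no other group. For NS alone, a replicate block over 9 libraries gave 8048 calls (3936 higher, 4112 lower) against 8350 without it, and deviations of libraries with the same number correlated by 0.0899, -0.0752 and -0.0825.

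The sign changes were as follows, and their cause was not tested. Under knockdown Ccl4 gave 0.00859 with DESeq2, 0.00744 with the compared groups alone, 0.000844 with median-of-ratios scaling and -1.3 to 0.576 without a library. Library size alone gave -0.00109 for Fpr1 and -0.263 for Ccl3, and leaving out a library gave -0.16 to 0.958 for Fpr1, -0.592 to 0.754 for Ccl3 and -0.799 to 0.0174 for Fabp5. Removing the length and GC trend gave 0.125 for Aph1c under knockdown and, for the difference, -0.0738 for Serpina3g, 0.167 for Rnf150, -0.181 for Nod1, -0.344 for Hk3 and 0.134 for Cenpf. For the difference library size alone gave -0.019 for Nod1 and -0.0299 for Hk3, and upper-quartile scaling 0.0621 for Nos2. Without a library the difference was -0.541 to 0.552 for Serpina3g, -1.15 to 0.24 for Rnf150, -0.056 to 0.223 for Nod1, -0.0517 to 0.199 for Hk3, -0.739 to 1.64 for Ccr7, -0.23 to 0.123 for Nos2, -1.09 to 0.449 for Emr4 and -0.336 to 1.18 for F13a1.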
